A study of Mus musculus with 84 samples.

Results

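The 44 Wnt pathway genes were examined for 4 histone marks at their promoters in adipocytes of lean, obese and formerly obese mice. They were taken by name from a list of 44 symbols, all of which matched among the 21851 protein-coding genes of the annotation: 19 Wnt ligands, 10 Frizzled receptors, the 2 co-receptors Lrp5 and Lrp6, 9 secreted antagonists of the Dkk, Sfrp and Wif1 families, and 4 intracellular genes, Axin1, Axin2, Dixdc1 and Ctnnb1. The list names genes and sets no threshold on a measured value, but it was drawn up with earlier results of these data known.

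Wnt proteins are secreted signals that bind a Frizzled receptor together with Lrp5 or Lrp6. In the canonical branch the bound receptor disables the destruction complex that Axin scaffolds, β-catenin, the product of Ctnnb1, accumulates and enters the nucleus, and TCF/LEF factors turn on targets such as Axin2. The secreted antagonists bind the ligands or the co-receptors. In adipose tissue canonical signals such as Wnt10b are known to hold back adipocyte differentiation, while Wnt5a is known for non-canonical signalling and inflammation, with Sfrp5 as one of its antagonists. Many developmental regulators, Wnt ligands among them, carry H3K27me3, the mark of Polycomb repression, in differentiated cells. H3K4me3 marks promoters that are active or poised, H3K27ac active promoters and enhancers, and H3K4me1 enhancers and the flanks of promoters.

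Each library was a CUT&Tag experiment, in which an antibody directs a transposase to cut the DNA around 1 histone mark, on nuclei from the epididymal fat of male AdipoERCre x NuTRAP mice, for which the study's methods give C57BL/N as the background strain. In these mice a tamoxifen-inducible Cre under the adiponectin promoter switches on a reporter that labels adipocyte nuclei, and labelled nuclei were pulled out of frozen tissue, so every group carried the transgenes. In the 12-week cohort, C mice were fed chow to 18 weeks of age and H mice received 12 weeks of high-fat diet to the same age, whereas CC_s mice were fed chow to 26 weeks and HC mice received 12 weeks of high-fat diet followed by 8 weeks of chow to 26 weeks. In the 25-week cohort, CC_l mice were fed chow to 31 weeks and HH mice received 25 weeks of high-fat diet to 31 weeks, whereas CCC mice were fed chow to 39 weeks and HHC mice received 25 weeks of high-fat diet followed by 8 weeks of chow to 39 weeks. Of the 84 libraries, 21 profiled H3K4me3, 20 H3K27me3, 21 H3K27ac and 22 H3K4me1, with 2 or 3 per group. The study describes replicates as independent biological samples, and the labels do not tie a library to a mouse. It also describes profiling the marks in parallel from the same fat depot, so differences in several marks may come from the same mice. A group below is a diet group when its mice ever received the high-fat diet, and a control otherwise. Per the study, controls first ate a low-fat chow. CC_s and CCC mice then changed to a standard chow, as HC and HHC mice did. Controls of a cohort therefore differ in age and in chow together.

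The files were peak lists, 1 per library, holding the regions that the authors' peak caller placed among the strongest 1 in 100. A promoter was counted as marked in a library when a peak covered at least 1 bp within 2000 bp of any annotated transcription start site (TSS) of the gene. Peak heights were not scaled between libraries and the read depth is unknown, so a promoter without a peak is one where no peak was listed, not one without the mark. Lists held 11249 to 41976 peaks in the H3K4me3 libraries, 21809 to 46397 in those of H3K27me3, 12174 to 41989 in those of H3K27ac and 14486 to 40682 in those of H3K4me1. The number of marked promoters ranged over the libraries from 9122 to 14429 (H3K4me3), 2243 to 5917 (H3K27me3), 3865 to 12048 (H3K27ac) and 1331 to 11241 (H3K4me1). For H3K27ac, CCC replicate 3 marked 3865 promoters, the fewest of that mark, against 11106 in CCC replicate 1. HC replicate 2 stood apart for H3K27me3, with 8.54 Mb of the genome covered against 16.9 to 110 Mb in the other H3K27me3 libraries. The treatment field named another group than the title for 4 libraries of H3K4me3, namely CCC replicate 3, CC_l replicate 2 and HH replicates 2 and 3. Titles were used, and calls that change with the treatment field are named where they occur. Of 8 adipocyte markers, all 8 carried H3K4me3 and H3K27ac peaks in every control library, and 6 to 8 did in the diet libraries. Of 8 macrophage markers, however, 0 to 4 carried H3K4me3 in control libraries and 0 to 8 in diet libraries, with 0 to 8 (median 8) in H against 3 in each C library, 1 to 6 in HC against 0 to 2 in CC_s, 7 to 8 in HH against 3 in CC_l, and 8 in HHC against 2 to 4 in CCC. By the treatment field HH held 2 to 3, CC_l 3 to 7 and CCC 4 to 8 of them. Adgre1, Lyz2 and Mrc1 carried it in no control library. Progenitor markers ranged from 0 to 6 of 8 in controls and from 0 to 7 in diet libraries for H3K4me3, and endothelial markers from 0 to 6 and from 0 to 8. Mesothelial markers ranged from 0 to 5 and from 0 to 4. For H3K27me3, 1 to 4 of the 8 adipocyte markers had a peak in control libraries and 1 to 6 in diet libraries. They numbered 1 to 6 in HHC against 1 in CCC, and 1 to 3 in HC against 1 in CC_s. In H the number was 1 against 1 to 2 in C, and in HH 1 to 3 against 1 to 4 in CC_l. Macrophage markers with H3K27me3 numbered 0 to 4 in control and 0 to 5 in diet libraries. The part of other cell types in the results that follow was not tested, and in such bulk libraries a mark in a minority of nuclei and a weak mark in all nuclei cannot be told apart.

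Promoter sequences are shown for Dixdc1 and Wnt9b, which were among the 4 genes with the lowest p for H3K27me3 by diet history. Marks differed between the internal start sites and the 5′ end of Dixdc1, and Wnt9b differed for both H3K4me3 and H3K27me3. The outer of the 2 Dixdc1 promoters printed lies within 2000 bp of that 5′ end, but its start site is none of the 6 TSS used here. Marks were not counted at that site itself. The sequence around the 5′ end was 51.5% G or C. The other 2 of the 4, Wnt5a and Fzd3, have no entry in the RefSeq promoter table used (GRCm38.p6). Each line holds the 250 bases upstream of the start site, read 5′ to 3′ on the minus strand, with CG dinucleotides in capitals. Promoters that carry H3K4me3 and H3K27me3 together are mostly CpG-rich, as are those with H3K4me3 only.
Dixdc1 internal promoter (chr9:50727985-50728234): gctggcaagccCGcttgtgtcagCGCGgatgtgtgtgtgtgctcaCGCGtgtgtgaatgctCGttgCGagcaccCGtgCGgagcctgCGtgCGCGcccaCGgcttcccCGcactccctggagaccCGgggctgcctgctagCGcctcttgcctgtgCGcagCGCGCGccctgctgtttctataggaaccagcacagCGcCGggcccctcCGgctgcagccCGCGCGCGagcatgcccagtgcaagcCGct
Dixdc1 outer promoter (chr9:50737736-50737985): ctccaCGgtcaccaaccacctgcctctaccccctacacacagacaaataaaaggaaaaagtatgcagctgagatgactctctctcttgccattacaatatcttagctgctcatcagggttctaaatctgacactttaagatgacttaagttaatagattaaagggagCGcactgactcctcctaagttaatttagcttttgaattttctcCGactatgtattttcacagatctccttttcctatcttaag
Wnt9b promoter (chr11:103749822-103750071): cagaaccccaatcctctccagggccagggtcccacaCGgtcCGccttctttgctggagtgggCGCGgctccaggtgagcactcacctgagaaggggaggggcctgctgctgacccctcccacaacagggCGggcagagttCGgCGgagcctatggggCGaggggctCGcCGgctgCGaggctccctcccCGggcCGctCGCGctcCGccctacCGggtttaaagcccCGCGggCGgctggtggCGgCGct
The internal Dixdc1 promoter held 28 CpG and was 70% G or C, the outer one 3 CpG and 40%, and that of Wnt9b 22 CpG and 72%. The TCF/LEF motif CTTTGAT, searched on both strands of the full entries of 300 bases, occurred in none of these 3. It occurred in 2 of the 34 entries that belong to 29 of the Wnt pathway genes (Wnt5b and Wnt11) and in 3.73% of all 32851 entries.

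In control adipocytes the marks differed by role: 14 of 19 ligands and 6 of 9 secreted antagonists carried H3K27me3, whereas 8 of 10 receptors, both co-receptors and all 4 intracellular genes carried H3K4me3, 2 of these receptors together with H3K27me3. H3K27me3 was present in most control libraries at 23 of 44 genes, against 15% of all promoters. H3K4me3 was present by the same rule at 24 of 44, against 57.6% of all promoters. H3K27ac was present at 13 of 44, against 40.6%, and H3K4me1 at 7 of 44, against 13.7%. Set beside the background, the Wnt pathway genes thus held H3K27me3 at a larger share, H3K27ac at a smaller share and H3K4me3 at a similar share. Most means more libraries with a peak than without. These counts describe chosen genes and carry no test.

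Among the 19 ligands, 14 carried H3K27me3, 6 carried H3K4me3, 2 carried H3K27ac and 1 carried H3K4me1. H3K27me3 without H3K4me3 was found at 12 of them: Wnt1, Wnt2, Wnt2b, Wnt3, Wnt3a, Wnt4, Wnt7a, Wnt7b, Wnt8a, Wnt10a, Wnt10b and Wnt16. All of these but Wnt2b, marked in 9 of 10, carried an H3K27me3 peak in 10 of 10 control libraries. The repressed set included the canonical ligands Wnt1, Wnt3a and Wnt10b. H3K4me3 without H3K27me3 was found at Wnt5a, Wnt5b, Wnt9a and Wnt9b, and both marks at Wnt6 and Wnt11. Wnt8b had neither mark in most control libraries.

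Among the 10 Frizzled receptors, which span the membrane and bind the ligand, 8 carried H3K4me3, 6 H3K27ac, 3 H3K27me3 and 2 H3K4me1. Fzd1, Fzd3, Fzd4, Fzd5, Fzd7 and Fzd8 had H3K4me3 alone, Fzd2 and Fzd6 had both marks, Fzd10 had H3K27me3 alone and Fzd9 had neither. The co-receptors Lrp5 and Lrp6 carried H3K4me3 and H3K27ac and had an H3K27me3 peak in 0 of 20 libraries. The 4 intracellular genes all carried H3K4me3, 3 of them H3K27ac and 3 H3K4me1, and none H3K27me3. Among the 9 antagonists, 6 carried H3K27me3, 4 H3K4me3, 1 H3K4me1 and 0 H3K27ac. Dkk1, Dkk2, Dkk3 and Sfrp2 had H3K27me3 alone, Sfrp1 and Wif1 both marks, Sfrp4 and Sfrp5 H3K4me3 alone, and Dkk4 neither.

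Over all 44 genes, 6 had both marks, against 4.39% of all promoters, 18 had H3K4me3 only, against 53.2%, and 17 had H3K27me3 only, against 10.6%. The remaining 3 had neither. At Wnt6, Fzd2, Sfrp1 and Wif1 the stretches covered by each mark in most control libraries overlapped, by 783, 779, 885 and 1239 bp. At Wnt11 and Fzd6 no position was covered by both marks in most control libraries. H3K27ac and H3K27me3 shared no such position at any of the 44 genes, in control or in diet libraries.

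**Figure D1:**
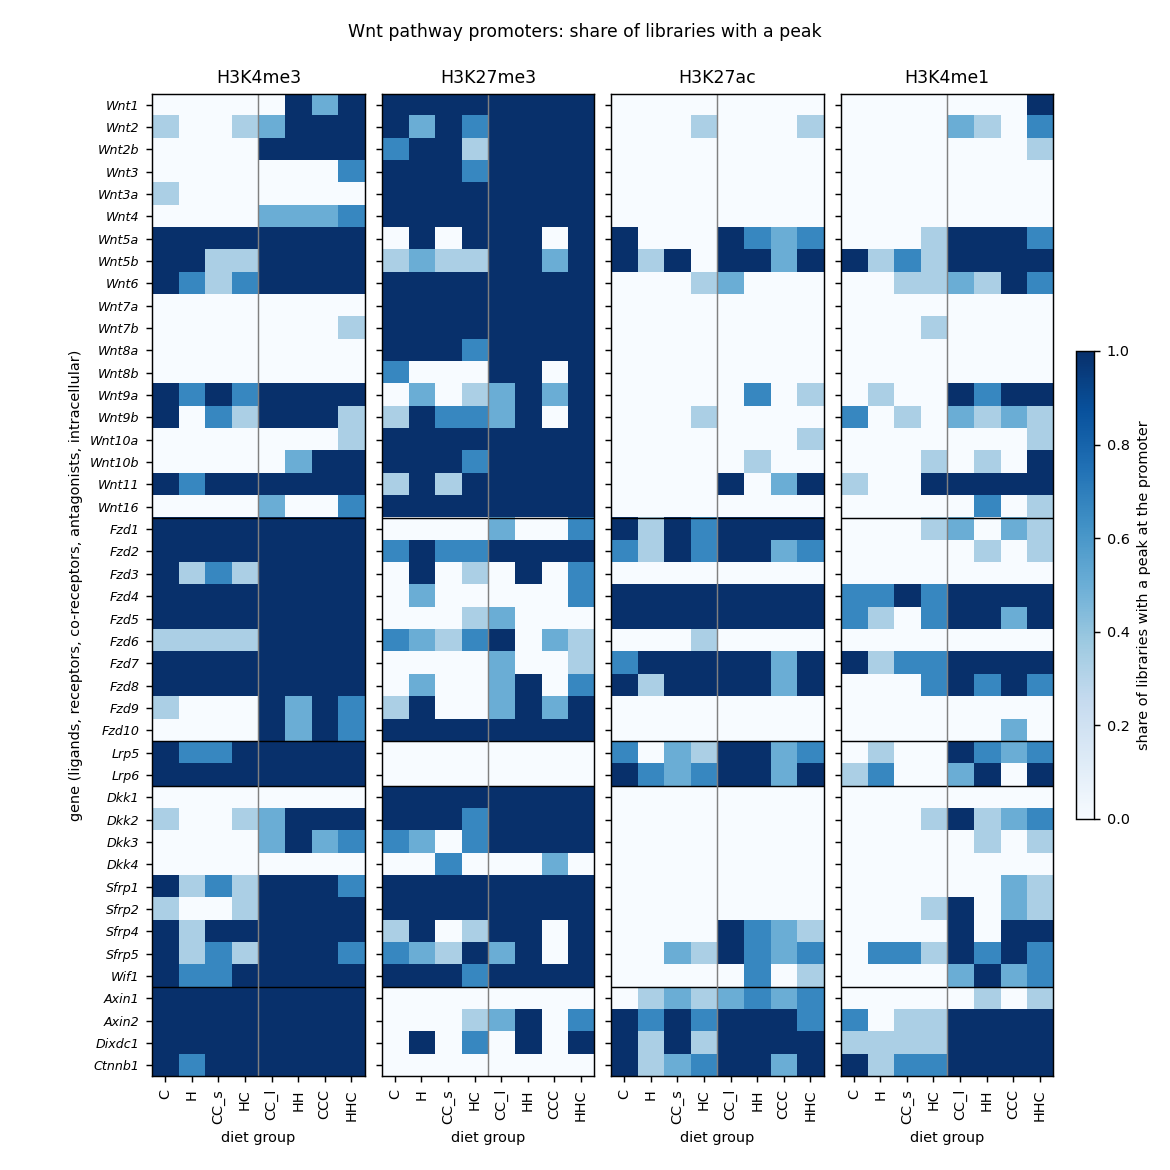
Share of the libraries of each group (columns) in which each of the 44 promoters (lines, ordered by role) carried a peak, from 0 (white) to 1 (dark blue), in 1 panel per mark. Most ligands are dark for H3K27me3 and pale for H3K27ac, Lrp5, Lrp6, Axin1 and Ctnnb1 are white for H3K27me3 throughout, and Dixdc1 is white for H3K27me3 in the 4 control groups and coloured in the 4 diet groups.

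CpG content near the 5′ end of the gene record, which the choice of genes did not use, differed between the states. The observed over expected CpG ratio of the promoters had a median of 0.736 over the 44 genes and 0.553 over all promoters, and 32 of 44 exceeded 0.6, against 45.9% of all. The genes with H3K4me3 only had a median of 0.812 (all promoters in that state 0.731), those with both marks 0.774 (0.669), those with H3K27me3 only 0.617 (0.472), and the 3 with neither 0.327 (0.172). Within each state the median of the Wnt pathway genes was thus above that of the promoters in the same state.

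Neighbouring ligand genes kept separate peaks. Wnt1 and Wnt10b lie 11706 bp apart on chromosome 15, Wnt6 and Wnt10a 6193 bp apart on chromosome 1, Wnt3a and Wnt9a 16175 bp apart on chromosome 11, and Wnt3 and Wnt9b 24328 bp apart on chromosome 11. No H3K27me3 peak reached from 1 promoter of a pair to the other in any of the 20 libraries. Wnt3 was marked in 10 of 10 control libraries and its neighbour Wnt9b in 4 of 10.

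Across groups, the number of Wnt pathway genes with both marks was higher in the 25-week cohort, and highest in HHC. By the same rule within each group, 5 genes had both marks in C, 6 in H, 4 in CC_s and 6 in HC, then 12 in CC_l, 21 in HH, 11 in CCC and 28 in HHC. The share of all promoters with both marks was also higher in the 25-week cohort, and between C and H it was lower in H: 4.50% in C, 2.61% in H, 1.52% in CC_s and 3.04% in HC, then 6.34% in CC_l, 9.56% in HH, 6.27% in CCC and 12.5% in HHC. By the treatment field 13 genes had both marks in CC_l, 22 in HH and 10 in CCC. The 28 genes of HHC included ligands that had H3K27me3 alone in C, such as Wnt1, Wnt3, Wnt4, Wnt10b and Wnt16, and genes that had H3K4me3 alone there, such as Wnt5a, Fzd1, Fzd3, Fzd4, Axin2 and Dixdc1. H3K4me3 was listed at 10 genes in the 25-week cohort and in no library of the 12-week cohort: Wnt1, Wnt2b, Wnt3, Wnt4, Wnt7b, Wnt10a, Wnt10b, Wnt16, Fzd10 and Dkk3. Of all promoters 7.96% did the same. Wnt2b was the fullest case, with 0 of 12 libraries in the 12-week cohort and 9 of 9 in the 25-week cohort. The share of libraries marked was higher in the 25-week cohort at 27 genes (H3K4me3), 26 (H3K27me3), 20 (H3K27ac) and 32 (H3K4me1), and lower at 1, 2, 3 and 1. Over all promoters it was higher at 33.1%, 36.4%, 48.5% and 62.1% for the 4 marks in that order, and lower at 0.49%, 7.25%, 8.95% and 1.38%. Age and length of diet differ together between the cohorts and cannot be told apart, and whether the cohorts' libraries were prepared together is not given in the sources used here, so the diet comparisons that follow were made within cohort and age.

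**Figure D2:**
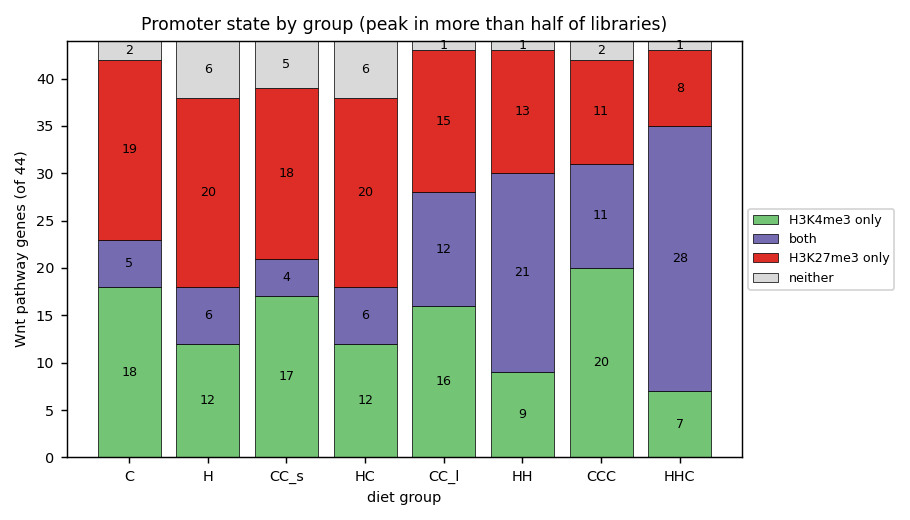
Number of the 44 genes in each of 4 promoter states (H3K4me3 only, both marks, H3K27me3 only, neither) in each of the 8 groups, with a mark counted as present when most of the group's libraries had a peak and the number of genes printed in each bar segment. Genes with both marks number 4 to 6 in the 12-week cohort and 11 to 28 in the 25-week cohort. A group with 2 libraries of a mark needed a peak in both, and a group with 3 in at least 2.

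For H3K27me3 the question was which Wnt pathway promoters differed between mice with and without a history of high-fat diet. The clearest differences were at Dixdc1, Wnt5a and Fzd3, genes that carried H3K4me3 alone in controls and where more diet than control libraries had an H3K27me3 peak. Of the 44 promoters, 12 were marked in all 20 libraries and 4 in none, which left 28 that could differ. The test compared the share of diet and of control libraries marked, averaged over the 4 comparisons H against C, HC against CC_s, HH against CC_l and HHC against CCC, with a two-sided exact permutation test within comparisons. At an unadjusted p under 0.05, 6 of the 28 were marked in a larger share of diet libraries, against 4.57% of the 9542 promoters tested, and 0 in a smaller share, against 4.6%. The 6 were Dixdc1, Wnt5a, Fzd3, Wnt9b, Sfrp4 and Wnt9a. The lowest adjusted p over all 9542 promoters was 0.281, so no promoter of the genome, and none of these, passed the threshold after Benjamini-Hochberg adjustment. The median difference was 10.4 percentage points over the 28 and 4.17 over all promoters tested, with 17 of the 28 and 51.1% of all on the higher side. Without HC replicate 3 the count fell from 6 to 3 (Dixdc1, Wnt5a and Fzd3).

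Dixdc1, which encodes a DIX-domain protein that acts with the Dishevelled proteins to promote canonical Wnt signalling, lies on the minus strand at chr9:50662752-50739517 (GRCm38). Its promoter windows carried an H3K27me3 peak in 0 of 10 control and 9 of 10 diet libraries, a mean difference of 91.7 percentage points (exact permutation p = 0.000333, adjusted p = 0.281). The H3K27me3 covered was 0 bp in all 3 C, all 3 CC_s, both CC_l and both CCC libraries. It was 1510 and 740 bp in H, 0, 367 and 1101 bp in HC, 4080 and 1857 bp in HH, and 7472, 1418 and 3515 bp in HHC. Every diet library but HC replicate 1 therefore lay above every control. Over the whole gene with 2000 bp on either side, all 10 diet libraries held H3K27me3, from 488 to 28164 bp, and 1 of 10 control libraries did, CC_l replicate 1 with 2265 bp (exact permutation p = 0.00708, adjusted p = 0.0747).

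The difference at Dixdc1 lay at its internal start sites and not at its outer end. The gene has 6 annotated TSS. A cluster of 3, at 50727938, 50727975 and 50728067, lies 11450 to 11579 bp inside the gene, at an intronic position, next to the CpG-rich promoter printed above. There H3K27me3 was listed in 0 of 10 control and 7 of 10 diet libraries, H3K4me3 in 10 of 10 and 11 of 11, and H3K27ac in 9 of 9 and 3 of 12. At a further intronic TSS, 50693799, 45718 bp from the 5′ end, H3K27me3 was listed in 0 of 10 and 7 of 10 and H3K27ac in 0 of 9 and 0 of 12. At the 5′ end of the gene, 50739517, the counts were 0 of 10 and 1 of 10 for H3K27me3, 10 of 10 and 8 of 11 for H3K4me3, and 5 of 9 and 8 of 12 for H3K27ac. With the 5′ end as the only TSS the H3K27me3 difference was 8.33 percentage points (exact permutation p = 1).

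The active marks at Dixdc1 covered fewer bases in diet libraries, at unadjusted thresholds only. H3K27ac over its promoter windows was 2699, 4520 and 2326 bp in C and 516, 0 and 0 bp in H, then 1054 and 3647 bp in CC_s and 0, 293 and 0 bp in HC. In the 25-week cohort it was 4503 and 4176 bp in CC_l, 1306, 4183 and 3664 bp in HH, 4683 and 814 bp in CCC, and 1606, 4096 and 1359 bp in HHC. No H or HC library reached its controls, whereas HH and HHC overlapped theirs. Over the whole genome, H3K27ac peaks covered 9.6 to 24.4 Mb in H against 42.8 to 49 Mb in C. They covered 11.6 to 34.7 Mb in HC against 25.2 to 43.8 Mb in CC_s. The part of these shorter lists in the Dixdc1 values was not tested. Over all libraries the median was 3647 bp in controls and 911 bp in diet groups (exact permutation p = 0.0117, adjusted p = 0.34). H3K4me3 had medians of 4405 and 2312 bp (exact permutation p = 0.0489, adjusted p = 0.478). In H the 3 H3K4me3 values were 702, 2136 and 823 bp, below the 4185 to 5107 bp of C, whereas in HH they were 3875 and 5241 bp and in CC_l 2999 and 4523 bp. Whole H3K4me3 lists also covered less of the genome in H, 11 to 30.2 Mb against 41 to 53.4 Mb in C.

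**Figure D3:**
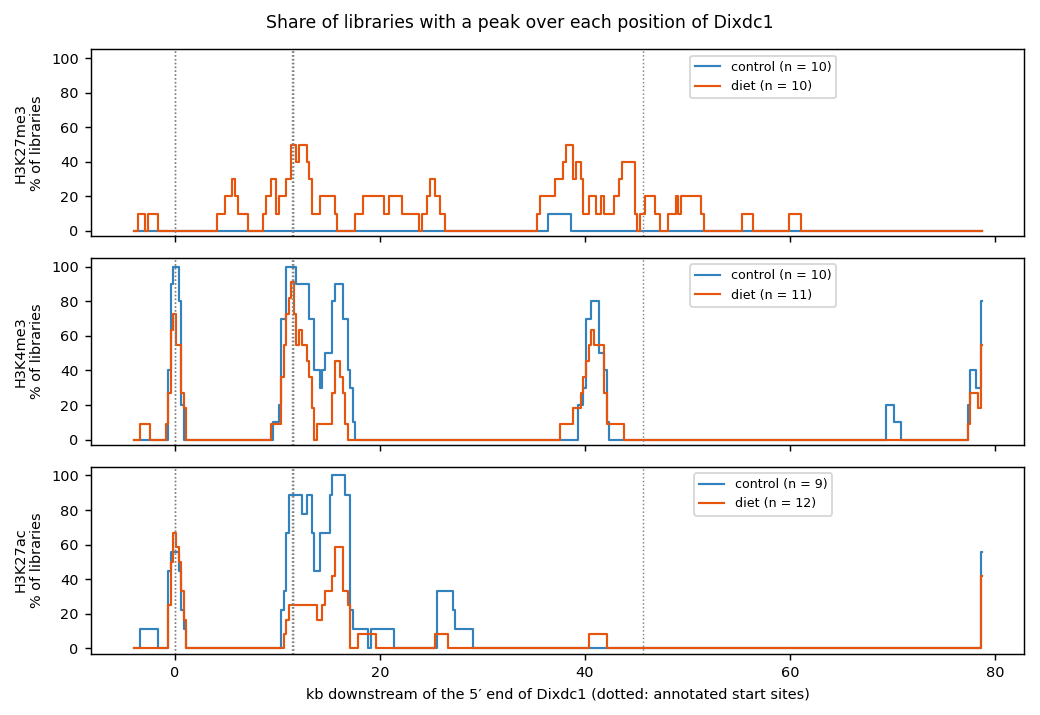
Percent of control (blue) and diet (orange) libraries with a peak over each position of Dixdc1, for H3K27me3, H3K4me3 and H3K27ac, against distance in kb downstream of the 5′ end, with annotated start sites as dotted lines. H3K27me3 in diet libraries stands over the internal start sites and further inside the gene, where at most 1 of 10 control libraries has a peak, while H3K27ac over the internal start sites is listed in a larger share of control libraries.

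Wnt5a, a ligand of the non-canonical branch, lies at chr14:28504750-28527448 with TSS at 28504750 and 28511405. H3K27me3 was listed in 2 of 10 control and 10 of 10 diet libraries, 75 percentage points apart (exact permutation p = 0.0005, adjusted p = 0.281). It covered 0 bp in every C, CC_s and CCC library, 536 and 437 bp in H, 840, 502 and 1241 bp in HC, and 4223, 1832 and 2766 bp in HHC. In CC_l, however, it covered 6458 and 1414 bp, and in HH 3125 and 157 bp, so by length 1 comparison of the 4 went the other way. The bases covered gave an exact permutation p of 0.588, and windows of 1000 bp gave 37.5 percentage points and p = 0.118, so the difference held for presence of a peak in the wider window only. It was listed at the 5′ end in 2 of 10 control and 8 of 10 diet libraries and at the internal TSS in 1 of 10 and 9 of 10. H3K4me3 at Wnt5a was present in all 21 libraries.

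Fzd3, a receptor known for planar polarity and axon guidance, lies on the minus strand at chr14:65192449-65262463. It carried H3K27me3 in 0 of 10 control and 7 of 10 diet libraries, 75 percentage points apart (exact permutation p = 0.005, adjusted p = 0.3). The promoter bases covered were 0 in all controls, 1378 and 2231 bp in H, 0, 297 and 0 bp in HC, 3571 and 1006 bp in HH, and 3557, 0 and 163 bp in HHC. The obese groups H and HH did not overlap their controls, and the formerly obese groups did. Over the whole gene the range was 0 bp in all controls and 0 to 8312 bp in diet libraries, with a median of 2057 bp, and this difference passed the threshold over all genes (exact permutation p = 0.0035, adjusted p = 0.0473). Its p stayed under 0.05 in all 8 alternative settings tried. H3K4me3 at Fzd3 was listed in 9 of 10 control and 7 of 11 diet libraries.

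Wnt9b, a canonical ligand of kidney and facial development, lies on the minus strand at chr11:103727364-103749821 and differed for both marks in opposite directions. H3K27me3 was listed in 4 of 10 control and 9 of 10 diet libraries, 54.2 percentage points apart (exact permutation p = 0.024, adjusted p = 0.42). It covered 0, 0 and 2139 bp in C and 1052 and 2035 bp in H, then 2144, 0 and 940 bp in CC_s and 0, 641 and 924 bp in HC. In the older cohort it covered 4001 and 0 bp in CC_l and 4001 and 3810 bp in HH, then 0 bp in both CCC libraries and 3272, 1224 and 1827 bp in HHC, so that only HHC and CCC did not overlap. H3K4me3 was listed in 9 of 10 control and 4 of 11 diet libraries, 50 percentage points lower in diet (exact permutation p = 0.0205, adjusted p = 0.65). It was 1032, 1716 and 1290 bp in C and 0 bp in all 3 H libraries, 0, 1034 and 939 bp in CC_s and 776, 0 and 0 bp in HC. It was 2031 and 2494 bp in CC_l, 1459 and 2744 bp in HH, 2360 and 2648 bp in CCC, and 0, 2755 and 0 bp in HHC. Both p-values rose above 0.05 without some libraries, up to 0.0735 for H3K27me3 without 1 of CC_s replicate 2, HC replicate 2 or HC replicate 3, and up to 0.054 for H3K4me3 without 1 of CC_s replicates 2 and 3 and HC replicates 2 and 3.

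The antagonist Sfrp4, a secreted Frizzled-related protein of the extracellular space, carried H3K27me3 in 3 of 10 control and 8 of 10 diet libraries (50 percentage points, exact permutation p = 0.03, adjusted p = 0.438). It covered 0, 0 and 956 bp in C, 556 and 1452 bp in H, 0 bp in all CC_s libraries and 0, 0 and 1196 bp in HC. It covered 2349 and 1071 bp in CC_l, 3285 and 769 bp in HH, 0 bp in both CCC libraries, and 3875, 1777 and 2118 bp in HHC. Only HHC and CCC were without overlap, and without HC replicate 3 the p was 0.06. The promoter window of Sfrp4 overlaps that of its neighbour Epdr1, so a peak there could belong to either.

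Wnt9a carried H3K27me3 in 2 of 10 control and 7 of 10 diet libraries (45.8 percentage points, exact permutation p = 0.04, adjusted p = 0.486). It covered 0 bp in every C and CC_s library, 0 and 919 bp in H, 0, 0 and 1442 bp in HC, 3612 and 0 bp in CC_l, 2487 and 2294 bp in HH, 499 and 0 bp in CCC, and 3167, 874 and 1380 bp in HHC. Its p rose above 0.05 in 12 of the 20 fits that left out 1 library, to at most 0.113, so this difference depended on single libraries.

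**Figure D4:**
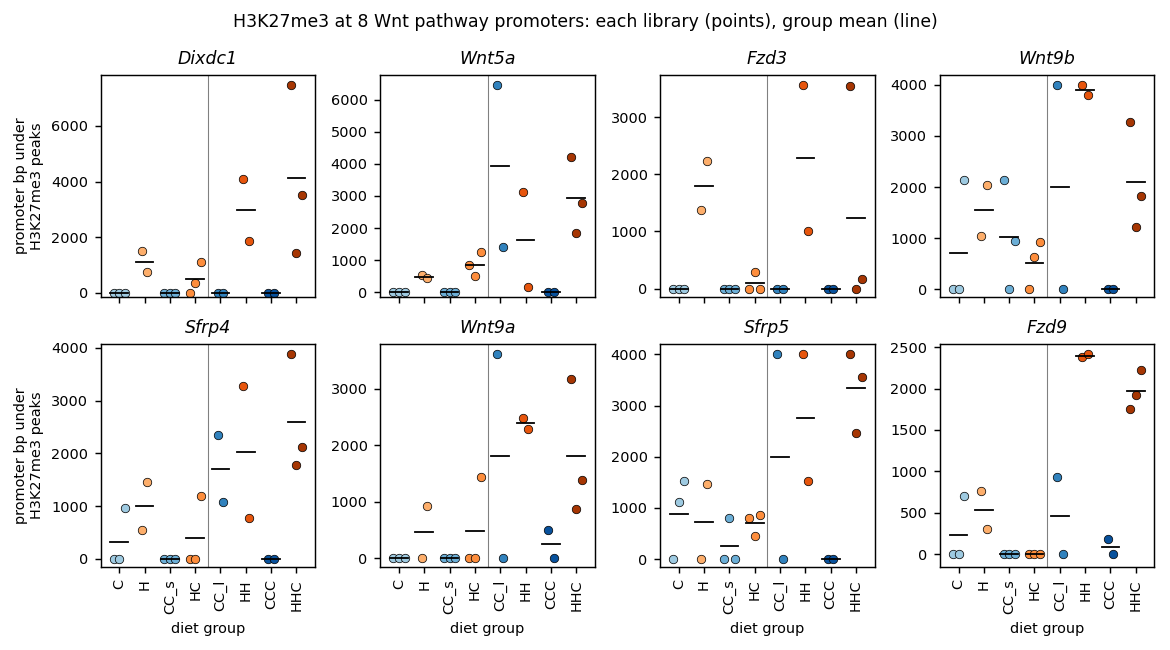
Base pairs of the promoter windows covered by H3K27me3 peaks in each library (points) with the group mean (line), by group, at 8 of the genes described here. For Dixdc1 and Fzd3 all control points lie at 0, and for Wnt5a the highest point is a control of CC_l with 6458 bp.

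Per comparison, a promoter was called gained when every library of the diet group and no library of its control group had a peak, and lost in the reverse case. H3K27me3 was gained in H against C at 3 genes, Wnt5a, Fzd3 and Dixdc1, against 1.29% of all promoters. In HC against CC_s it was gained at Wnt5a (0.165%). In HH against CC_l it was gained at 2 genes, Fzd3 and Dixdc1 (1.05%), and lost at Fzd6 (0.943%). In HHC against CCC it was gained at 6 genes: Wnt5a, Wnt8b, Wnt9b, Sfrp4, Sfrp5 and Dixdc1 (1.37%). In at least 1 of the 4 comparisons 7 genes were gained, against 3.44% of all promoters, and 1 was lost, against 3.53%. The calls at Wnt5a, Wnt8b and Sfrp4 in HHC rest partly on their absence in CCC: in the controls these 3 were themselves lost in CCC against CC_l, against 1.03% of all promoters. CCC and CC_l differ in age and in chow together. Sfrp5, an antagonist of Wnt5a, covered 0 bp in both CCC libraries and 4001, 2472 and 3569 bp in HHC, and over all comparisons was marked in 4 of 10 control and 9 of 10 diet libraries (50 percentage points, exact permutation p = 0.072). Wnt8b covered 0 bp in CCC and 1448, 3570 and 1942 bp in HHC, but also 2113 and 1539 bp in CC_l. Fzd6 covered 2841 and 925 bp in CC_l and 0 bp in HH, and was marked in 6 of 10 control and 4 of 10 diet libraries over all. Each comparison has its own controls, so the 3 calls at Dixdc1 came from separate libraries.

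Taken by stage, Fzd3 and Dixdc1 were the genes past an unadjusted p of 0.05 in the obese groups H and HH against their controls (exact permutation p = 0.0167 for each, the smallest these libraries allow), of 22 genes tested. Over all 7092 promoters 0.353% were higher and 0.324% lower by that rule. After weight loss, in HC and HHC against their controls, Wnt5a (p = 0.005 by the exact permutation test, the smallest possible), Sfrp5 and Dixdc1 (p = 0.02 for each) were past it, of 28 genes tested, all higher. Over all 8032 promoters 0.884% were higher and 1.11% lower. All adjusted p-values of these smaller fits were 1.

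By bases covered, more Wnt pathway genes had less H3K27me3 in diet libraries than had more of it. Over the promoter windows, 11 of 40 genes tested had fewer bases covered in diet libraries at an unadjusted p under 0.05, against 15.1% of promoters, and 3 of these passed the adjusted threshold, Wnt2, Wnt7a and Wnt10a, against 4.96%. More bases at an unadjusted p under 0.05 were covered at 5 (Wnt11, Fzd3, Fzd9, Sfrp4 and Dixdc1), against 3.09%, and at 0 after adjustment, against 0.211%. The 5 and the 11 came from the same two-sided exact permutation test. Wnt2 fell from a median of 3542 bp in controls to 2824 bp in diet libraries, a mean difference of -1430 bp (adjusted p = 0.0175, exact permutation). Its values were 3507, 3723 and 3426 bp in C and 1297 and 0 bp in H, 3209, 3409 and 3785 bp in CC_s and 2691, 0 and 2957 bp in HC, without overlap in either pair. In the older cohort they were 4001 and 3544 bp in CC_l, 3610 and 3015 bp in HH, 3539 and 3584 bp in CCC, and 3444, 3213 and 1715 bp in HHC. Shorter values without overlap were common: of the 3285 promoters with H3K27me3 in most controls, 54.6% had them in H and 41.7% in HC. These promoters were chosen by their peaks in controls, a choice that by itself favours shorter values in diet libraries. Wnt10a was covered over all 4001 bp of its window in every control library and over 420 to 4001 bp in diet libraries (exact permutation adjusted p = 0.037). Wnt7a, a ligand of limb and nervous system development, had medians of 4001 and 3497 bp (exact permutation adjusted p = 0.0283).

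Over whole genes with flanks, 42 of the 44 could be tested. H3K27me3 covered fewer bases at 13, against 14.7% of genes, of which 7 passed the adjusted threshold, against 7.1%: Wnt2, Wnt3, Wnt7b, Wnt10a, Fzd10, Sfrp1 and Wif1. Wnt7b fell from a median of 22030 bp to 10775 bp (exact permutation adjusted p = 0.0212), Sfrp1 from 6404 to 3945 bp (0.0203) and the Wnt inhibitor Wif1 from 9436 to 6009 bp (0.0396). More bases were covered at 3, Fzd3, Fzd9 and Dixdc1, against 4.48%, of which Fzd3 and Fzd9 passed the adjusted threshold, against 0.478%. Fzd9 held 0 to 1550 bp in controls, with a median of 0 bp, and 0 to 3246 bp in diet libraries, with a median of 1461 bp (exact permutation adjusted p = 0.0458). Its H and HH libraries, with 304 to 3246 bp, and its HHC libraries, with 2154 to 3111 bp, held the mark, and its 3 HC libraries held 0 bp.

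Whole H3K27me3 lists also covered fewer Mb in H and HC than in their controls. H3K27me3 peaks covered 16.9 to 20 Mb of the genome in H against 43 to 64.1 Mb in C, with median widths of 549 to 592 bp against 1242 to 1425 bp. They covered 8.54 to 36.3 Mb in HC against 43.2 to 60.5 Mb in CC_s, 50.1 to 101 Mb in HH against 69.3 to 110 Mb in CC_l, and 78 to 82.9 Mb in HHC against 61.4 to 70.4 Mb in CCC. For the 23 genes with H3K27me3 in most controls, the median ratio of diet to control mean length over the gene was 0.486 in H, where all 3285 such genes gave 0.29, then 0.459 in HC (0.42), 0.949 in HH (0.86) and 0.969 in HHC (0.976). The mean was shorter at 21 of 23 in H, 21 in HC, 16 in HH and 13 in HHC. Of all 3285 such genes it was shorter at 91.2%, 90.5%, 69.3% and 51.9% in the same order. Summed over the 23 genes and divided by the Mb covered in the library, the H3K27me3 length was 3.98 to 4.38 kb per Mb in H and 3.47 to 4.34 in C, 2.55 to 3.53 in HC and 3.02 to 3.48 in CC_s, 2.91 to 3.85 in HH and 2.85 to 3.34 in CC_l, and 2.29 to 2.83 in HHC against 3.07 to 3.31 in CCC. Only in HHC did the ranges separate. The summed length itself overlapped there, 190 to 222 kb in HHC against 204 to 216 kb in CCC, while the HHC libraries covered more of the genome. The 23 genes were chosen by their peaks in controls, CCC included, and the ratio was not computed for all 3285 such genes. The 3 genes gained in H were called in libraries that covered less of the genome than their controls, and the 6 gained in HHC in libraries that covered more. The part of library coverage in the shorter lengths and in these calls was not tested.

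**Figure D5:**
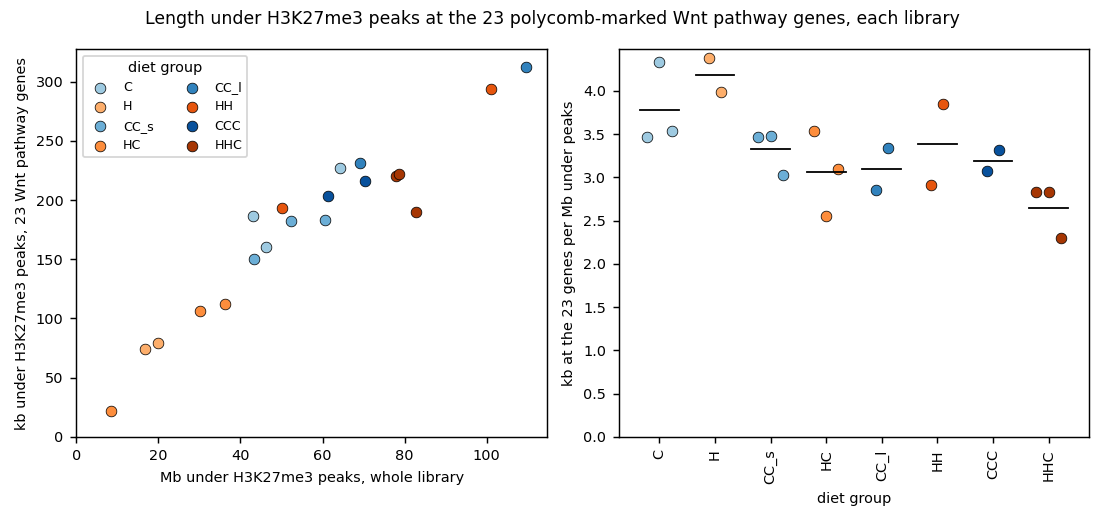
Left, kb covered by H3K27me3 peaks at the 23 genes marked in most control libraries against Mb covered in the whole library, 1 point per library; right, the ratio of the 2 in kb per Mb by group, with group means as lines. H and HC lie below all controls on both axes of the left panel, and HHC lies at 2.29 to 2.83 kb per Mb, below the other groups except parts of HC.

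For H3K4me3, 28 of the 44 promoters could differ by diet history. Wnt9b, described above, was the 1 gene with an unadjusted p under 0.05, lower in diet, against 1.8% of 7332 promoters, and 0 were higher, against 3.41%. The lowest adjusted p over all promoters was 0.645. Wnt9b was lost in H against C (1.71%), and Wnt1 was gained in HH against CC_l (1.32%). The Wnt1 call rests on libraries with conflicting labels: by the treatment field Wnt1 was not called and Wnt4 was the gene gained, against 0.636% of promoters. By title, Wnt9b and Wnt1 were the 2 calls among the 4 comparisons, where 2.59% of all promoters were gained and 2.52% lost at least once. Wnt1, a canonical ligand silent in most adult tissues, had H3K4me3 in 0 of 12 libraries of the 12-week cohort, 0 bp in both CC_l libraries, 926 and 1533 bp in HH, 0 and 966 bp in CCC, and 1026, 1380 and 742 bp in HHC, beside H3K27me3 in all 20 libraries. Between controls, Wnt10b gained H3K4me3 in CCC against CC_l (0.462% of promoters).

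For H3K27ac, 23 promoters could differ, and 0 passed an unadjusted p of 0.05 by diet history in the exact permutation test, where 3.19% of 12553 promoters were higher and 1.73% lower. The 3 calls were all losses: Wnt5a in H against C (1.94% of promoters), Wnt5b in HC against CC_s (0.499%) and Wnt11 in HH against CC_l (0.403%), while 2.64% of all promoters were lost and 3.06% gained in at least 1 comparison. Wnt5a held 1789, 2698 and 1796 bp in C, 0 bp in all 3 H libraries and also 0 bp in both CC_s libraries and all HC libraries, so it was lost between the controls C and CC_s as well (0.622%). In the 25-week cohort Wnt5a held 2433 and 3118 bp in CC_l, 0, 2886 and 1376 bp in HH, 3406 and 0 bp in CCC, and 0, 5400 and 3365 bp in HHC. Wnt5b, a close relative of Wnt5a, held 1602 and 1631 bp in CC_s and 0 bp in all 3 HC libraries, 1779, 1539 and 2072 bp in C and 0, 391 and 0 bp in H, whereas in the 25-week cohort it was present in 3 of 3 HH and 3 of 3 HHC libraries. Wnt11, a non-canonical ligand, held 1157 and 2101 bp in CC_l and 0 bp in all 3 HH libraries, and 1486, 1227 and 2464 bp in HHC. By bases covered, Axin2, a negative regulator and direct target of β-catenin, was the gene with the lowest p for H3K27ac, with a median of 4096 bp in controls and 748 bp in diet libraries (exact permutation p = 0.0011, adjusted p = 0.209). Its values were 3295, 5429 and 4096 bp in C and 279, 714 and 0 bp in H, 2344 and 3877 bp in CC_s and 0, 560 and 1267 bp in HC, without overlap, and 4830 and 5058 bp in CC_l against 1358, 1627 and 782 bp in HH, also without overlap. After the longer diet and weight loss they overlapped, with 5663 and 1686 bp in CCC and 3153, 4679 and 0 bp in HHC. Whole H3K27ac lists covered fewer Mb in H than in C, as given for Dixdc1, and overlapped in Mb between HC and CC_s and between HH and CC_l. Their part in the Axin2 values was not tested.

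For H3K4me1, 33 promoters could differ, and 2 were higher in diet libraries at an unadjusted p under 0.05, against 5.46% of 13888 promoters, and 0 lower, against 1.58%. A share of 2 in 33 is near that background. Wnt10b was marked in 0 of 10 control and 5 of 12 diet libraries (41.7 percentage points, exact permutation p = 0.03, adjusted p = 0.565), and the co-receptor Lrp6 in 2 of 10 and 8 of 12 (45.8 percentage points, exact permutation p = 0.029, adjusted p = 0.565). Lrp6 held 0, 1276 and 0 bp in C, 0, 727 and 626 bp in H, 0 bp in all CC_s and HC libraries, 0 and 1521 bp in CC_l, 370, 658 and 1411 bp in HH, 0 bp in CCC, and 1532, 499 and 868 bp in HHC. H3K4me1 was gained in HC at Wnt11 (0.215% of promoters), lost in HH at the antagonists Sfrp2 and Sfrp4 (0.705%), and gained in HHC at Wnt1, Wnt10b and Lrp6 (3.98%). In at least 1 comparison 6.22% of all promoters were gained and 1.57% lost. Wnt1 held 0 bp in the 19 libraries outside HHC and 1209, 1869 and 2122 bp in HHC. Wnt10b held 0 bp in CCC and 2051, 1030 and 3490 bp in HHC. Wnt11 held 0 bp in all 3 CC_s libraries and 3254, 1482 and 1928 bp in HC. Sfrp2 held 1297 and 2389 bp in CC_l and Sfrp4 1739 and 1636 bp, and both held 0 bp in all 3 HH libraries. Sfrp4 was marked again in all CCC and all HHC libraries, with 1416 to 2442 bp.

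A further 51 genes of the pathway, outside the 44, were set beside these. In controls 37 carried H3K4me3, 18 H3K27me3, 22 H3K27ac and 10 H3K4me1, and 6 had both H3K4me3 and H3K27me3, 31 H3K4me3 only, 12 H3K27me3 only and 2 neither. By diet history H3K27me3 was higher at an unadjusted p under 0.05 at 1 of 26 tested, Apcdd1, a membrane inhibitor of Wnt signals (3 of 10 control and 7 of 10 diet libraries, exact permutation p = 0.042), and lower at 0. Over the 4 comparisons there were 3 H3K27me3 gains and 2 losses among the 51 (1.47% and 0.98% of pairs of gene and comparison), 12 gains and 1 loss among the 44 (6.82% and 0.568%), and 846 gains and 899 losses over all promoters (0.968% and 1.03%). The difference between these sets was not tested. By the same rule H3K4me3 was higher at Rnf43 (p = 0.04) and H3K27ac at Znrf3 (p = 0.042, both exact permutation), ligases that remove Frizzled receptors from the cell surface, and H3K4me1 at none. The genes called in 2 or more comparisons were Rnf43, Frat1 and Tle4. Rnf43 gained H3K4me3 in HHC (1.39% of all promoters), where CCC had itself lost it against CC_l and which was not called by the treatment field, and lost H3K27me3 in HC (0.828%), where CC_s had itself gained it against C. Frat1, an inhibitor of the kinase GSK3, gained H3K27ac (2.32%) and H3K4me1 in HHC. Tle4, a co-repressor of TCF/LEF factors, lost H3K27me3 in HHC (0.732%) and gained H3K4me1 in HH (2%).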

How the data were processed

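Male mice, diets and libraries are as described above. Per the labels and the study's methods, the authors trimmed reads with Trim Galore 0.6.6, aligned them to mm10 with Bowtie2 2.4.4, processed them with SAMtools 1.13 and bedtools 2.30, marked duplicates, called peaks with SEACR 1.3 in each library at a threshold of 0.01, and removed blacklisted regions. The deposited values are the total and maximum signal (coverage) of each peak, unscaled between libraries. The signal served only to rank peaks in 1 alternative; presence of a peak and bases covered were analysed. The study tested read counts over promoters, which were not used here.

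Promoters were windows of 2000 bp either side of every TSS of protein-coding transcripts (GENCODE M21 basic, GRCm38; 41438 TSS of 21851 genes). Groups came from sample titles. Differences were tested per promoter by a two-sided exact permutation test, permuting labels within the 4 comparisons (12000 to 40000 arrangements; smallest p 2.5e-05 to 8.33e-05), with Benjamini-Hochberg adjustment over promoters marked in some but not all libraries. The procedure was tested on simulated data. Genes were named when gained or lost in at least 1 of 16 diet comparisons or at an unadjusted p under 0.05 by diet history. The other pathway genes were named when called in 2 or more. Genes named for bases covered, the co-occurrence of marks or cohort were chosen after their values were seen. The 44 genes, the 51 others and the marker lists were chosen with earlier results of these data known. Alternatives varied the window, overlap, number of peaks, TSS, libraries, labels, pairing and measure, and whole-gene bases covered and the H3K27ac differences without CCC replicate 3 were added after seeing the data. Analyses used Python 3.11.15, numpy 2.4.6, pandas 2.3.3 and matplotlib 3.10.9.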

Additional observations from a re-analysis of the deposited data

Results flagged for a closer look

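H3K27ac at Wnt5b was set apart by the size of the diet difference in the 2 cohorts. The share of marked libraries was 66.7 percentage points lower in H than in C and 100 lower in HC than in CC_s, against 0 points between HH and CC_l and 50 points higher in HHC than in CCC. The 25-week minus 12-week difference was 108 points (exact permutation p = 0.008), which did not pass the threshold after adjustment over 20 gene and mark pairs (adjusted p = 0.16). Wnt5b was among these pairs because it was called lost in HC, and that loss is part of the difference, so the p describes a gene chosen for it. The 50 points came from CCC replicate 3 alone, the H3K27ac library with the fewest marked promoters, and without it they were 0 points, the cohort difference was 83.3 points and p was 0.02 (exact permutation).

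H3K27ac at Wnt11 was set apart by the diet difference in obesity and after weight loss, with the same limits. It was 0 points in H and in HC, 100 points lower in HH than in CC_l, and 50 points higher in HHC than in CCC. The weight loss minus obese difference was 75 points (exact permutation p = 0.04), which did not pass the threshold after adjustment (adjusted p = 0.367 over 20 pairs). Wnt11 entered through its loss in HH, which is part of that difference. Without CCC replicate 3 the HHC difference was 0 points, the weight loss minus obese difference 50 points and p 0.1 (exact permutation). No library of the 12-week cohort carried H3K27ac at this promoter.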

How the results depend on the processing

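The statements that 24 genes carried H3K4me3, 23 H3K27me3, 13 H3K27ac and 7 H3K4me1 in controls, that 6 had both marks, and the counts of calls were recomputed under each alternative, and 59 of 81 values stayed within 1.5 times. With windows of 1000 bp, H3K4me1 controls numbered 3 and genes at an unadjusted p under 0.05 numbered 2 for H3K4me3 and 1 for H3K4me1. With equal numbers of peaks per library, controls numbered 15 for H3K4me3 and 8 for H3K27ac, both marks 2, H3K4me1 genes gained or lost 1, and genes at that p 0 for H3K4me3, 2 for H3K27ac and 0 for H3K4me1. With the 5′ end as the only TSS, H3K27ac genes gained or lost numbered 1 and H3K4me1 controls 3. Bases covered in place of presence gave 5, 16, 4 and 1 genes at that p over promoters, of 39, 40, 25 and 33 tested. Over whole genes it gave 7, 16, 5 and 7, of 40, 42, 30 and 36. The marks are in the order H3K4me3, H3K27me3, H3K27ac and H3K4me1. Among all promoters tested, 3.95%, 3.09%, 4.04% and 8.92% were longer at that p, and 6.12%, 15.1%, 5.34% and 3.4% shorter. Among all whole genes, 6.26%, 4.48%, 5.76% and 14.1% were longer, and 7.03%, 14.7%, 7.26% and 8.2% shorter. Leaving out 1 library at a time gave 24 to 26, 23 to 24, 13 and 7 to 10 controls for the 4 marks in that order, 6 to 7 with both marks, 2 to 5, 8 to 12, 3 to 7 and 6 to 8 genes gained or lost, and 0 to 2, 3 to 9, 0 to 1 and 0 to 2 genes at that p. The lowest H3K27me3 value, 3, came without HC replicate 3. Direction turned at Lrp6 for H3K4me1 with 1000 bp windows (-4.17 percentage points), at Wnt11 for H3K27ac with the 5′ end only (4.17 points) and at Wnt11 for H3K4me1 by whole-gene bases (-938 bp). For single genes, 131 values kept direction and side of the threshold, 23 lost it and 5 gained it. In the fits without 1 library, p ranged for H3K27me3 from 0.000167 to 0.000833 at Dixdc1, 0.0005 to 0.00125 at Wnt5a and 0.00139 to 0.01 at Fzd3. Wnt10b for H3K4me1 rose above 0.05 in 12 of 22 such fits and Lrp6 in 7. Deviations of same-numbered libraries were weakly correlated (36 pairs, 6 with r above 0.1, range -0.259 to 0.258), and the main tests did not pair them. With 2 or 3 libraries per group this check cannot exclude a shared preparation. A replicate block gave 0 genes for H3K4me3 and 0 for H3K4me1 and the same count for H3K27me3. By the treatment field of 4 H3K4me3 libraries the counts stayed, but Wnt4 replaced Wnt1 among the genes gained. The causes of these moves were not tested. Depth is unknown, so a missing peak sets no upper limit on a mark.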

Other observations

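Ctnnb1, which encodes β-catenin, carried more H3K4me1 over the whole gene in diet than in control libraries, while its promoter carried H3K4me3 in 10 of 10 control and 10 of 11 diet libraries and H3K27me3 in 0 of 20. Bases covered were 4071, 1578 and 2018 bp in C and 5866, 7319 and 0 bp in H, 1355, 2166 and 2691 bp in CC_s and 3993, 6737 and 2902 bp in HC. They were 8911 and 2983 bp in CC_l and 12007, 12928 and 17206 bp in HH, and 4951 and 5347 bp in CCC and 14299, 15086 and 18631 bp in HHC. The groups did not overlap in 3 of the 4 comparisons, and in H 1 library held none. The median was 2837 bp in controls and 9663 bp in diet libraries (exact permutation p = 0.00065, adjusted p = 0.0326 over all genes), and 2.41% of all genes were longer by that rule. Ctnnb1 was the 1 gene of the 36 tested that passed it, a share near that background, and it was singled out after its values were seen. Of all genes 64.8% had more H3K4me1 bases in diet libraries by any amount, and 18 of the 36 did. Axin2 went the other way for the same mark, with 16741 bp in controls and 7726 bp in diet libraries as medians (exact permutation p = 0.0069, adjusted p = 0.0889).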
